A study of Mus musculus with 4 samples.

Results

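Mitosis, spindle and kinetochore genes form a set of 41 genes that run cell division from entry into mitosis to cytokinesis, and 40 of them had a probe set of their own among the 22180 genes measured. Members were taken by gene symbol from probe sets that carry a single symbol, and each of the 40 had 1 such probe set. The cyclin gene Ccnb1 had none and was not analysed here. The study measured total RNA from 4 mouse cell cultures on 1 array each, so no condition was replicated. Of the day 6 samples, both were bulk cultures of reprogrammable mouse embryonic fibroblasts (repMEFs), treated with ascorbic acid and doxycycline and taken on day 6 after doxycycline was added. One carried a knockdown of Firefly, a luciferase gene that mouse cells lack, and the other was labelled Sumo2 knockdown. The other arrays held induced pluripotent stem cells (iPSC), stable clones derived from fibroblasts with Sumo2 knockdown and labelled 38 h and 10 day, with no statement of what that time counts. All cells had the Black6-129X1/SvJ background, were grown in embryonic stem cell medium with serum, and came from a pool of male and female. No iPSC from Firefly knockdown cells was analysed here, so the iPSC state and a history of Sumo2 knockdown cannot be told apart.

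Sumo2 itself stood at log2 10.65 in the Firefly culture and 10.56 in the culture labelled Sumo2 knockdown, which is 93.8% of the control level, so the transcript does not show the labelled knockdown and every direction drawn from that culture rests on its label. The measuring floor was set for each array at the 50th percentile of probe sets with a single symbol (log2 6.64 to 6.67), and a gene counted as measured if it reached the floor on at least 1 array compared. Of 12 pluripotency markers, Nanog, Utf1, Epcam and Cdh1 lay above the floor on all 4 arrays, and each rose in the iPSC. A further 7 were below it on at least 1 day 6 array and reached it on both iPSC arrays, so that the floor itself favours their rise, and Dppa5a reached it on none. Of 7 blood and macrophage markers, 4 (Ptprc, Csf1r, Adgre1 and Cd14) lay below the floor on all 4 arrays. The other 3 reached it on at least 1 array: Cd68 read log2 8.69 to 10.02, Lyz2 6.09 to 7.92 and Itgam 5.76 to 6.96. Of 6 endothelial markers, Kdr and Emcn lay below it throughout. Tek was above it on all 4 arrays, at 7.95 and 8.17 in the lines and higher in both day 6 cultures (log2 difference -2.44), Pecam1 reached 9.54 and 10.18 in the lines only, Vwf reached 7.34, and Cdh5 reached 6.68. All 40 mitosis genes lay above the floor on all 4 arrays, the closest being Pttg1 at 0.80 log2 units above it.

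A cell enters mitosis when the kinase Cdk1, bound to cyclin A or B and switched on by Cdc25 phosphatases, phosphorylates its targets. Chromosomes then attach to spindle microtubules through kinetochores, and the spindle checkpoint holds back the anaphase promoting complex until every kinetochore is attached. That complex destroys securin and cyclin B, separase cuts cohesin, and the cell divides. Many of these genes are transcribed late in the cell cycle, and pluripotent cells are known for short cycles with brief gap phases.

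Most mitosis genes were lowest in the Firefly culture and highest in an iPSC line. The Firefly array held the lowest of the 4 values for 37 of 40 members, against 38.1% of the 12735 genes measured in at least 1 culture. Pttg1 was lowest in the culture labelled Sumo2 knockdown, and Cdc25b and Foxm1 were lowest in the 10 day line. In linear units, the summed level of the 40 genes was 36216 in the Firefly culture and 47241 in the culture labelled Sumo2 knockdown. The sums were higher in the iPSC, at 73678 for the 38 h line and 71976 for the 10 day line. In bulk cultures a smaller share of dividing cells and less of these RNAs per dividing cell cannot be told apart.

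**Figure D1:**
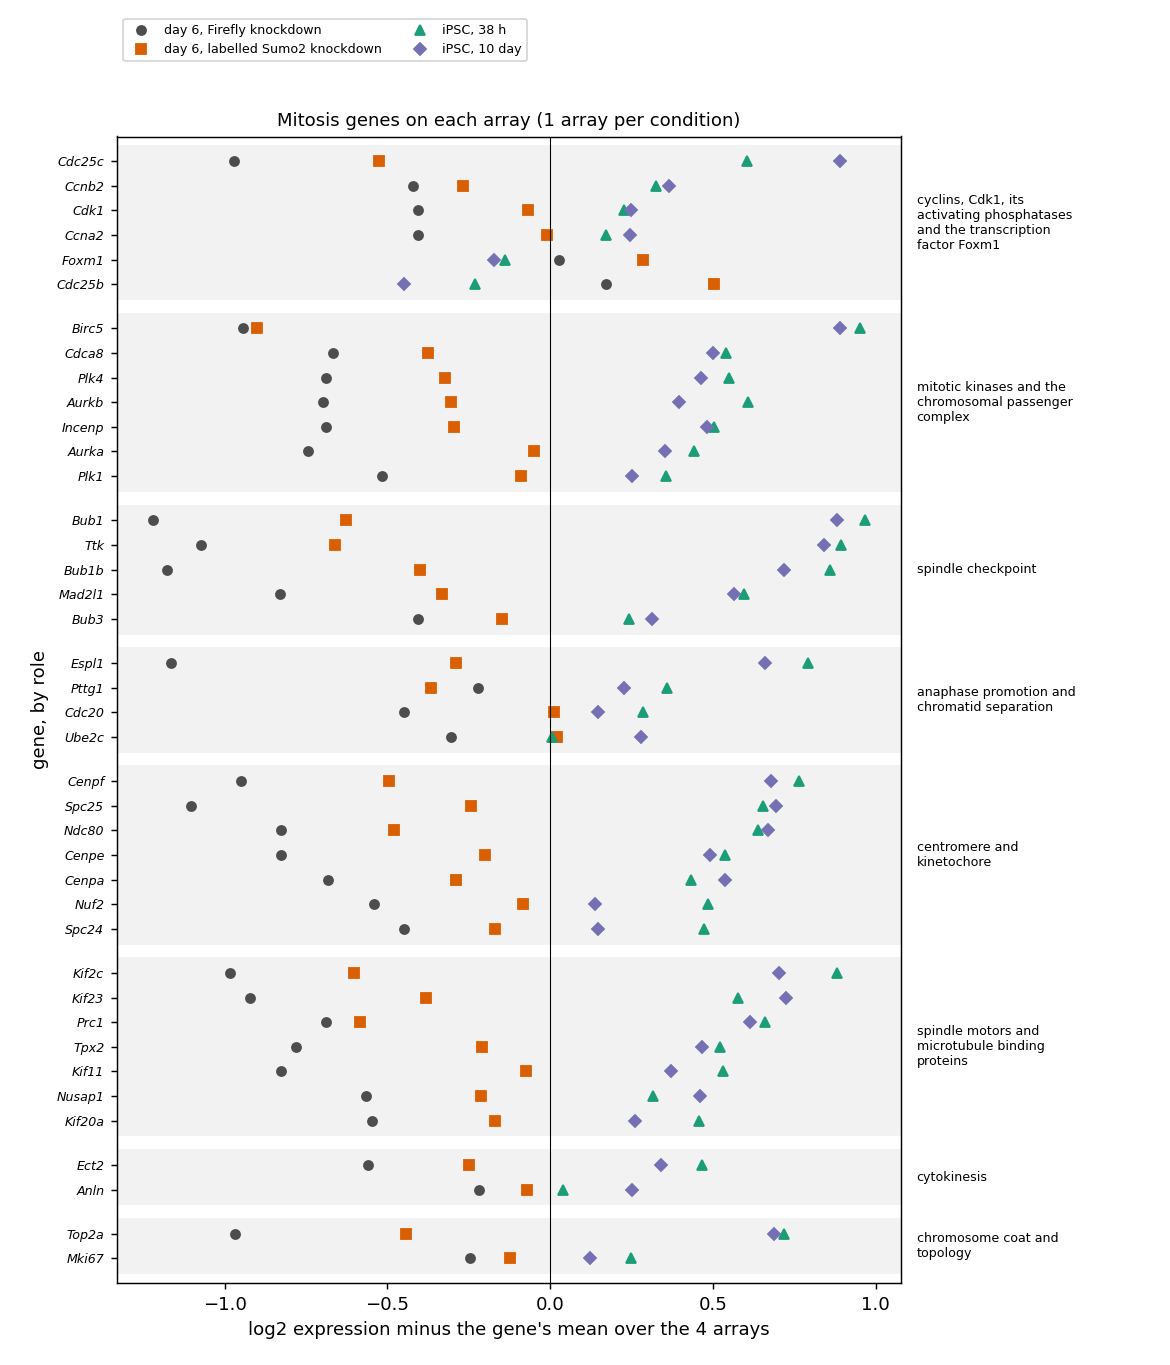
Each mitosis gene (vertical axis, grouped by role) on the 4 arrays, as log2 expression minus that gene's mean over the arrays (horizontal axis); each symbol is 1 array, with no replicates. The Firefly culture is leftmost for 37 of 40 genes, both iPSC symbols lie close together, and Cdc25b and Foxm1 run the other way.

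Genes of mitosis are known to share promoter elements: the cell cycle genes homology region (CHR), read by the DREAM and MuvB complexes, and the CCAAT box, bound by NF-Y. The promoter table (RefSeq, GRCm38.p6, 250 bases before to 50 after each start site) held 33 of the 41 genes. The words searched on both strands were TTTGAA and the palindrome TTCGAA as CHR spellings, CCAAT, and TTTNNCGC as an E2F word. TTTGAA stood in the windows of 23 of the 33 genes (69.7%), against 13.7% of the 9999 measured genes in the table and 20.2% of all its genes. Either CHR spelling stood in 25 (75.8%, against 15.7% of measured genes), CCAAT in 24 (72.7% against 42.7%), and CCAAT together with a CHR spelling in 22 (66.7% against 6.65%). TTTNNCGC was found in 3 mitosis genes (9.09% against 9.64%).

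Most mitosis genes with a CHR spelling had one near the start site. Of the 25 genes with a CHR spelling, 23 had one whose first base lay within 50 bases of the start on either side. That share was not counted for other genes. With only the 250 bases before the start, 12 genes held TTTGAA (36.4% against 12.2% of measured genes). A further feature, looked for after the positions had been seen, was a pair of CCAAT boxes whose first bases were 30 to 35 bases apart: 7 genes had it (21.2% against 2.87%), namely Aurka, Ccnb1, Ccnb2, Cdca8, Cdk1, Spc25 and Ube2c. Of the 28 DNA replication genes in the table, by comparison, 6 held a CHR spelling (21.4%) and 13 held TTTNNCGC (46.4%). A match is a description of letters, not a site of binding.

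**Figure D2:**
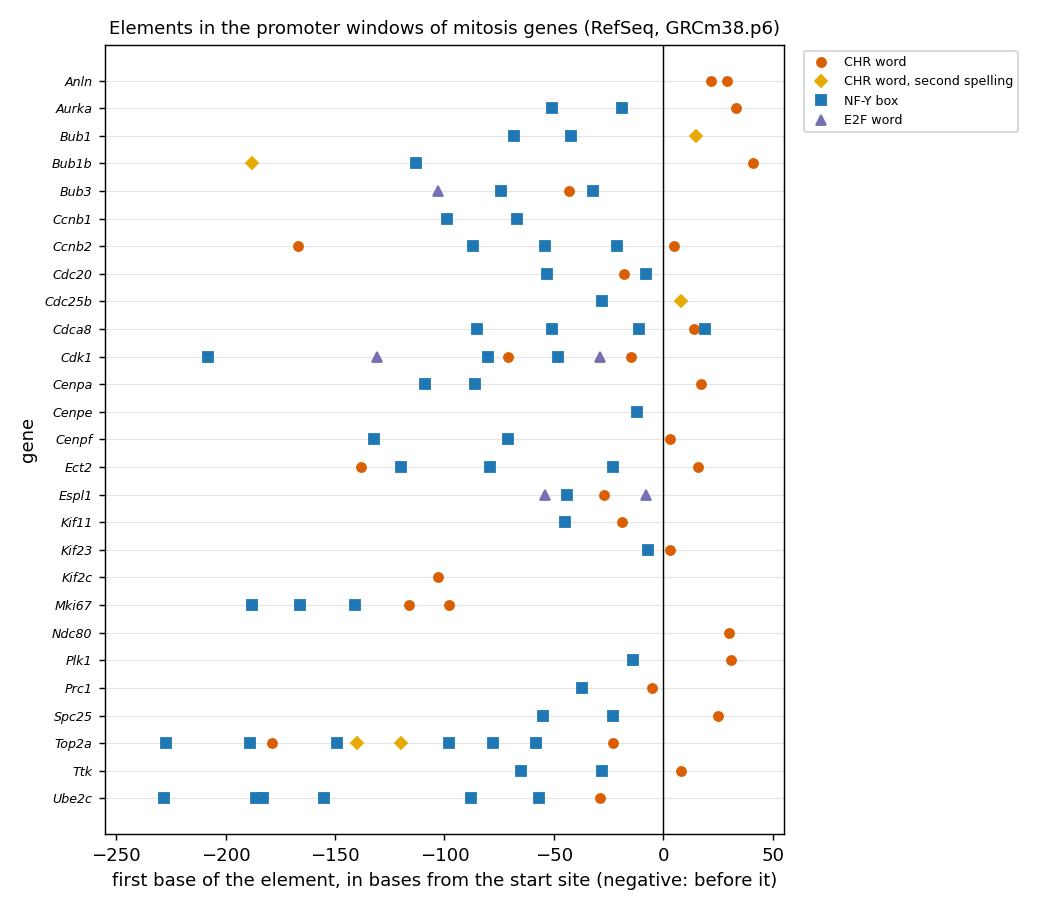
Positions of the searched words in the promoter windows of mitosis genes that held at least 1 (vertical axis), in bases from the start site (horizontal axis); the CHR word and its second spelling, the NF-Y box and the E2F word are separate symbols. For genes with several start sites the window listed first is drawn. Of 25 genes with a CHR spelling, 23 have one within 50 bases of the start, a share not counted for other genes.

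The 150 bases before the start site are shown for 7 genes on which the comparisons turn: Espl1 and Kif11, among the members with the widest gap between the day 6 cultures, Cdc20, Cdk1 and Top2a, which hold more than 1 CHR or CCAAT match, Cdc25b, which fell in the iPSC, and Pttg1, the member that was lower in the culture labelled Sumo2 knockdown. Capitals mark either CHR spelling and the CCAAT box, each on either strand, so that a CCAAT box on the other strand reads ATTGG. The windows are Espl1 chr15:102296143-102296292 (plus strand), Kif11 chr19:37376232-37376381 (plus strand), Cdc20 chr4:118437344-118437493 (minus strand), Cdk1 chr10:69352913-69353062 (minus strand), Top2a chr11:99024190-99024339 (minus strand), Cdc25b chr2:131186798-131186947 (plus strand) and Pttg1 chr11:43425982-43426131 (minus strand), all in GRCm38.p6.
Espl1: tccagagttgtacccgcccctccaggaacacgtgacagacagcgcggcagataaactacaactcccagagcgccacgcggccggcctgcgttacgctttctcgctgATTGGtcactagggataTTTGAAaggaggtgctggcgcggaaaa
Kif11: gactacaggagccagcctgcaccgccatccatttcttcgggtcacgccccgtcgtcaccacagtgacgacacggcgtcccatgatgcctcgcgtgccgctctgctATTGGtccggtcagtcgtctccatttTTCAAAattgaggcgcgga
Cdc20: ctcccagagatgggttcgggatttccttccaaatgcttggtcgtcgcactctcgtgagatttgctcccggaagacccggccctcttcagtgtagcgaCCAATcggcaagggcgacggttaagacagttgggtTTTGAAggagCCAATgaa
Cdk1: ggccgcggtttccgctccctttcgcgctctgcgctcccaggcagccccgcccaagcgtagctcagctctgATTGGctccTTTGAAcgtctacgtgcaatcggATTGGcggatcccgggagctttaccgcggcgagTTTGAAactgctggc
Top2a: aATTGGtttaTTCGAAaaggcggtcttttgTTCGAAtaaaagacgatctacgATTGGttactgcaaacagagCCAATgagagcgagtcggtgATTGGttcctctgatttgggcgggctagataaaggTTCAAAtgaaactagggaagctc
Cdc25b: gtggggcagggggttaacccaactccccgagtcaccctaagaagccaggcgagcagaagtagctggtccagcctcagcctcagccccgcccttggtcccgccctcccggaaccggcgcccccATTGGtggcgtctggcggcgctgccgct
Pttg1: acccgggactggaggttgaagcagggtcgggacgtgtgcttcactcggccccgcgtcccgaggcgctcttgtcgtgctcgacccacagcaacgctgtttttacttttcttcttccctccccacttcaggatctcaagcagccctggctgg

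In Espl1 and Kif11 a CCAAT box on the other strand, first base 44 and 45 bases before the start, precedes a CHR word at 27 and 19 bases. Cdk1 has 2 CHR words, 71 and 15 bases before its start. The Cdc25b window has its CCAAT match 28 bases before the start and TTCGAA 8 bases after it. None of the searched words was found in the Pttg1 window, nor in those of Birc5, Mad2l1, Nuf2, Nusap1 and Plk4. Members with and without a CHR spelling had medians that lay close, with no test: the median log2 difference of the day 6 cultures was 0.39 over 25 measured genes with one and 0.37 over 7 without, and that of iPSC against day 6 was 0.97 and 1.01.

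The first comparison asked what the knockdown labelled Sumo2 did to these genes at day 6. Of the 40 members, 39 were higher in that culture than in the Firefly culture, by a median log2 difference of 0.39, against 53.7% of 11740 genes measured at day 6 and a median of 0.02; 1 member was lower (46.3%). A size rule of 1.5-fold was passed by 7 members upwards (4.09% of all measured genes) and by 0 downwards (2.81%). At 2-fold 0 members were higher (0.945%) and 0 lower (0.230%). Each side is a single array, so these differences carry no replicate error and no test.

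The 7 members past 1.5-fold act at successive steps of mitosis. Espl1, the separase that cuts cohesin, differed most, at log2 8.27 and 9.15 (1.83-fold). Spc25, a subunit of the NDC80 complex that binds microtubules at the kinetochore, read 8.0 and 8.86 (1.82-fold). The checkpoint kinase-like protein gene Bub1b read 8.69 and 9.47 (1.71-fold). Each of these genes was higher again in both iPSC lines. Kif11, the motor that pushes spindle poles apart, read 9.85 and 10.61 (1.68-fold), and Aurka, the spindle pole kinase, 9.64 and 10.33 (1.62-fold). Cenpe, a kinetochore motor, read 8.79 and 9.41 (1.54-fold), and the checkpoint kinase gene Bub1 9.59 and 10.18 (1.51-fold). The members just under the rule were Tpx2 (1.49-fold), which activates Aurka, and Kif23 (1.46-fold), a motor of the central spindle. Scaling decides those nearest the rule: Bub1 fell short of it after cyclic loess (log2 difference 0.50) and after median centring (0.56), and Cenpe after cyclic loess (0.56).

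At the other end, Pttg1, which encodes securin, the inhibitor of separase, was the 1 member that was lower, at log2 7.62 in the Firefly culture and 7.47 in the culture labelled Sumo2 knockdown. Birc5 (survivin) was nearly equal at 7.61 and 7.65, as were the midzone protein gene Prc1 at 9.68 and 9.78 and Mki67, the gene of the proliferation marker Ki-67, at 10.61 and 10.73. The cytokinesis scaffold gene Anln (0.15) and the cyclin gene Ccnb2 (0.15) also differed little on the log2 scale. Differences of 30 members were above 0.3 and those of 10 above 0.5, sizes at which the shares of all measured genes were not counted. The SD of this difference over all genes measured at day 6 was 0.33.

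Markers of other cell states moved with this comparison. Every one of the 7 pluripotency markers measured at day 6 had its higher value in the culture labelled Sumo2 knockdown (53.7% of all measured genes). However, Esrrb, Dppa2 and Tdgf1 reached the floor in that culture alone. The summed level over the list of 12, in linear units, was 1326 in the Firefly culture and 5595 in the other. All 11 fibroblast markers measured were lower (46.3% of all measured genes), 2 of them by at least 1.5-fold (2.81%). The gap was small for Fn1 (-0.0023), Vim (-0.03) and Prrx1 (-0.09). Their summed levels over the list of 13 were 29831 and 26683. Summed levels of the 7 blood and macrophage markers were 850 and 781 and those of the 6 endothelial markers 1794 and 1805. The part of these cell states in the mitosis differences was not tested.

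**Figure D3:**
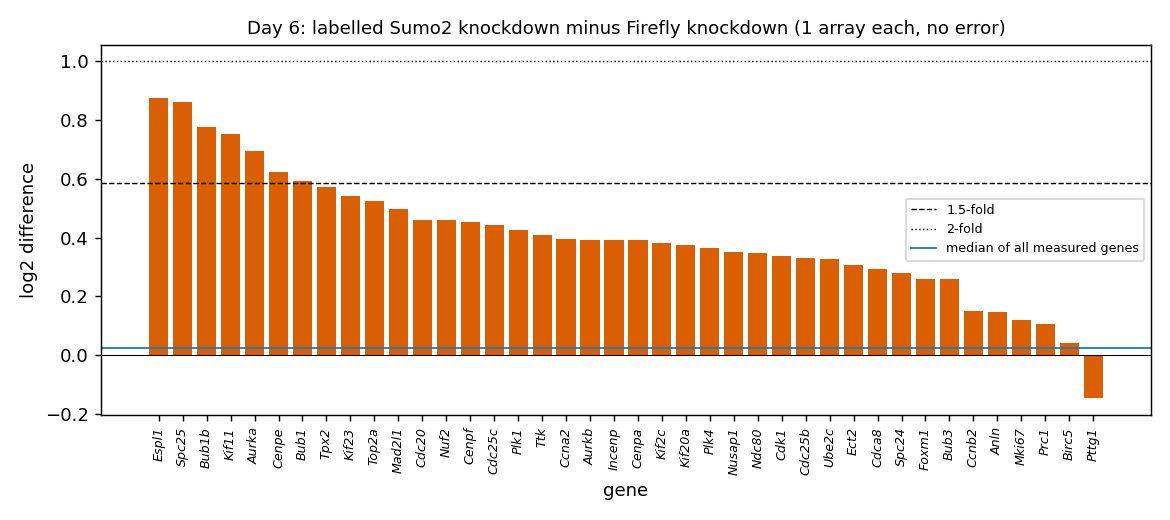
Log2 difference of each mitosis gene between the culture labelled Sumo2 knockdown and the Firefly culture at day 6 (vertical axis, 1 array each, no error) by gene (horizontal axis), with lines at 1.5-fold, at 2-fold and at the median of all measured genes (0.02). Bars of 39 genes are above 0, 7 reach 1.5-fold and 0 reach 2-fold.

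The second comparison asked how the iPSC differed from the day 6 cultures. Most mitosis genes rose, by a median of 0.98 on the log2 scale against 0.15 over all 12735 measured genes. With limma and a Benjamini-Hochberg adjusted p under 0.05, 32 of 40 members rose (29.0% of all measured genes), 1 fell (17.8%) and 7 did not pass. With a 2-fold size rule added, 18 rose (14.3%) and 0 fell (9.12%). With an unadjusted limma p under 0.05, 36 rose (34.0%) and 1 fell (21.3%). Both iPSC values were above both day 6 values for 37 members (46.8% of measured genes) and below them for 2 (32.7%), Cdc25b and Foxm1, while Ube2c overlapped. Cyclic loess lowered the median of all genes by 0.13 and changed the split of all calls from 62.0% to 52.4% upwards. Relative to the median of all genes, that of the members was 0.82 with the deposited values and 0.76 after cyclic loess. The test has 2 residual degrees of freedom, and what it takes as error contains the contrast of knockdowns and the contrast of clones. No condition was repeated, so the p-values measure only the spread between these samples, in which a technical part cannot be told apart.

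The 4 pluripotency markers above the floor on all arrays rose. Of 12 fibroblast markers measured, 5 fell and 1 rose, Postn, which was below the floor at day 6. Summed pluripotency levels were 1326 and 5595 at day 6 and 32055 and 34497 in the 38 h and 10 day lines, and summed fibroblast levels were 29831 and 26683 at day 6 and 20992 and 18956 in the lines. Blood and macrophage sums were 850 and 781 at day 6 and 1173 and 1515 in the lines, endothelial sums 1794 and 1805, then 1250 and 1741. Their part in the rise of mitosis genes was not tested. Leaving out an array leaves 1 array on its side of the comparison. The median of the members was 0.71 without the Firefly array (0.15 over all measured genes) and 1.19 without the array labelled Sumo2 (0.18). It was 0.93 without the 38 h array (0.14) and 0.99 without the 10 day array (0.14).

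**Figure D4:**
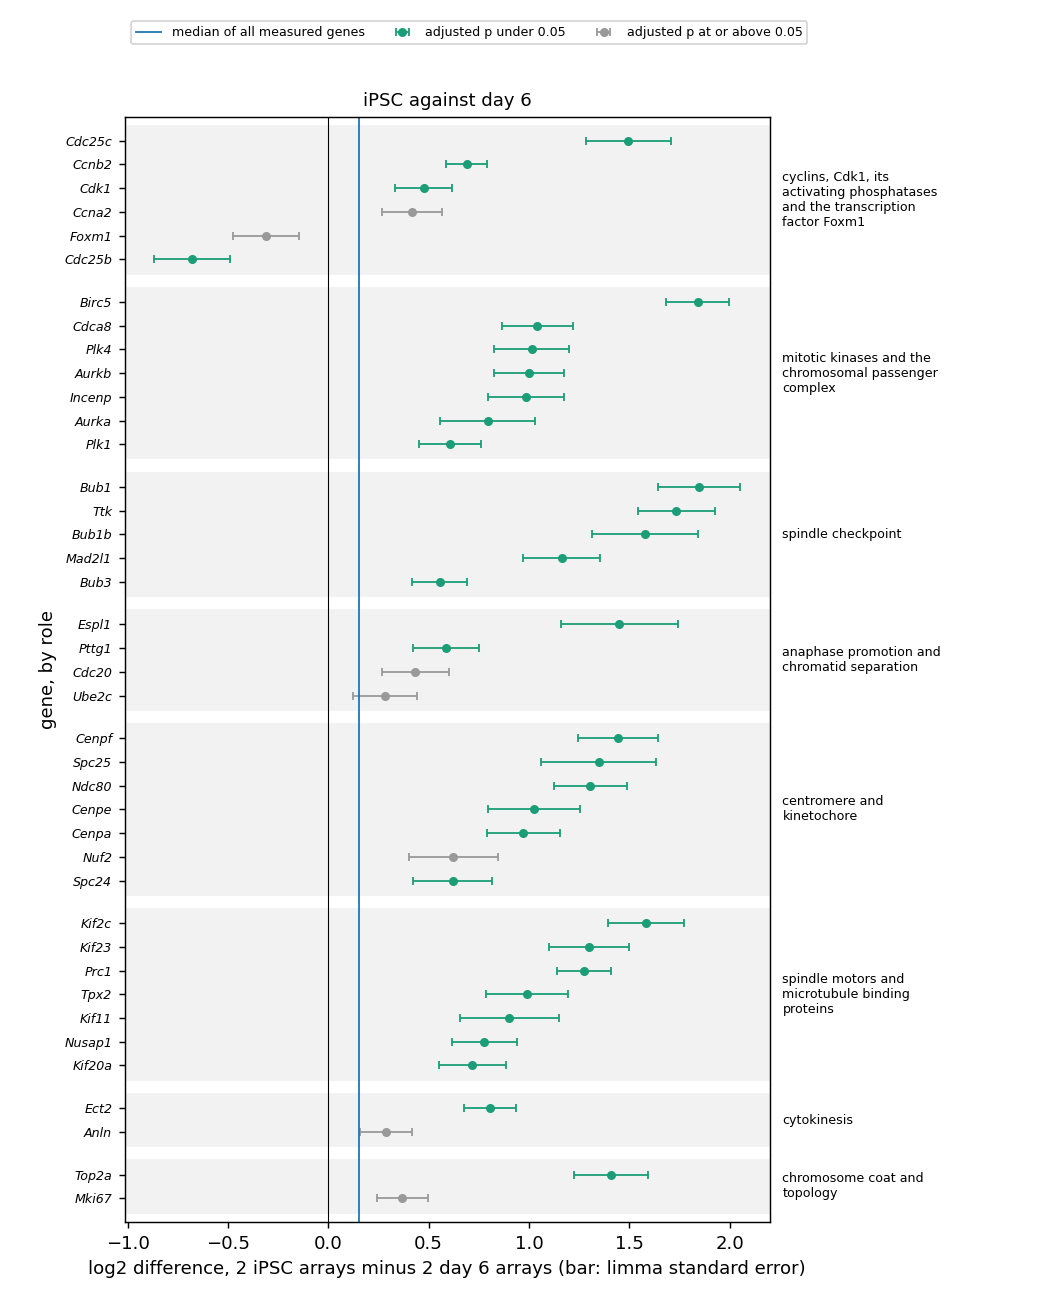
Log2 difference of each mitosis gene between the mean of 2 iPSC arrays and the mean of 2 day 6 arrays (horizontal axis; bars are limma standard errors) by gene and role (vertical axis), coloured by whether the adjusted p was under 0.05. Of 40 genes 32 lie above 0 with an adjusted p under 0.05, Bub1 and Birc5 are rightmost, and Cdc25b is the 1 gene that fell.

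Among the genes of the entry switch the response was mixed. Cdc25c, a phosphatase that activates Cdk1, read log2 7.51 in the Firefly culture, 7.96 in the culture labelled Sumo2 knockdown, 9.09 in the 38 h line and 9.38 in the 10 day line. It rose by 1.5 (SE 0.21, limma adjusted p = 0.00271), with both lines above both cultures. Its relative Cdc25b read 9.31, 9.64, 8.90 and 8.68 in the same order and fell by 0.68 (limma log2 difference -0.68, SE 0.19, adjusted p = 0.0273), so these phosphatase genes moved in opposite directions. The Cdc25b call was lost without the Firefly array (adjusted p = 0.0502), without the array labelled Sumo2 (0.123) and without the 10 day array (0.096), with adjusted p from 0.01 to 0.123 over 10 alternatives.

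Foxm1 encodes a transcription factor that drives late cell cycle genes. It was highest in the culture labelled Sumo2 knockdown, at 9.67, 9.93, 9.50 and 9.47 in that order of arrays. The difference of -0.31 (SE 0.16, limma adjusted p = 0.161) did not pass. After cyclic loess it was -0.50 and passed (adjusted p = 0.0378, range 0.0378 to 0.442 over 10 alternatives).

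The cyclin gene Ccnb2 read 11.13, 11.28, 11.88 and 11.92 and rose by 0.69 (SE 0.10, limma adjusted p = 0.00326). Cdk1 read 10.70, 11.03, 11.33 and 11.35 and rose by 0.48 (SE 0.14, limma adjusted p = 0.0353). Both lines stood above both cultures for each gene, by small steps for Cdk1. That call for Cdk1 was lost without the Firefly array (adjusted p = 0.125), without the 38 h array (0.0683), without the 10 day array (0.0832), after cyclic loess (0.0867) and without an intensity trend (0.0729), with a range of 0.0203 to 0.125 over 10 alternatives. Ccna2, the other cyclin measured, read 11.09, 11.49, 11.67 and 11.74. Its difference of 0.42 did not pass (limma adjusted p = 0.0583), though it did without the array labelled Sumo2 (adjusted p = 0.0188, range 0.0188 to 0.197).

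All 7 mitotic kinase and chromosomal passenger genes rose. Birc5 read 7.61, 7.65, 9.50 and 9.44 and rose 3.58-fold (log2 difference 1.84, SE 0.16, limma adjusted p = 0.000544). Its day 6 values were alike and its iPSC values were alike, which leaves a single step between the groups. The other passenger subunits, which correct faulty attachments at the centromere, rose by similar steps to one another: Cdca8 by 1.04, the kinase gene Aurkb by 1.0 and the scaffold gene Incenp by 0.99.

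Plk4, the kinase that starts centriole duplication, read 8.02, 8.38, 9.26 and 9.17 and rose by 1.01 (SE 0.19, limma adjusted p = 0.00658). Aurka stood at 10.82 and 10.73 in the lines and rose by 0.79, and Plk1, a kinase of mitotic entry and spindle assembly, read 11.17, 11.60, 12.05 and 11.94 and rose by 0.61. Both depended on single arrays. Without the Firefly array the adjusted p was 0.0894 for Aurka and 0.0601 for Plk1. Aurka also lost its call without the 38 h array (0.0589) and after cyclic loess (0.0598). Over 10 alternatives the ranges were 0.0101 to 0.0894 for Aurka and 0.0101 to 0.0601 for Plk1.

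The spindle checkpoint group had a higher median (1.58) than any other role group, and all 5 of its genes rose. Bub1 reached 11.78 and 11.69 in the lines and rose 3.60-fold (log2 difference 1.85, SE 0.20, limma adjusted p = 0.00119). Ttk, a kinase gene also called Mps1, read 8.16, 8.57, 10.12 and 10.07 and rose 3.33-fold. Bub1b stood at 10.73 and 10.59 in the lines and rose 2.99-fold. For these kinases the iPSC values were more than 1 log2 unit above either day 6 value. Mad2l1, which binds and restrains Cdc20, read 9.52, 10.02, 10.95 and 10.92 and rose 2.24-fold. The smallest step of the group was that of Bub3, which recruits Bub1 and Bub1b to kinetochores: 10.47, 10.73, 11.12 and 11.19, a rise of 0.56 (SE 0.14, limma adjusted p = 0.0182). The Bub3 call was lost without the Firefly array (adjusted p = 0.0774) and without the 10 day array (0.0583), in a range of 0.0155 to 0.0774 over 10 alternatives.

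Genes that carry out anaphase differed among themselves. Espl1 stood at 10.23 and 10.10 in the lines and rose 2.73-fold (log2 difference 1.45, SE 0.29, limma adjusted p = 0.00859). Its inhibitor gene Pttg1 read 7.62, 7.47, 8.20 and 8.07 and rose 1.5-fold (log2 difference 0.59, SE 0.16, limma adjusted p = 0.0273). That call for Pttg1 did not hold without the Firefly array (adjusted p = 0.0879), the array labelled Sumo2 (0.125), the 38 h array (0.109) or the 10 day array (0.0543), nor after cyclic loess (0.0648), with a range of 0.0253 to 0.125 over 10 alternatives. Cdc20, the activator of the anaphase promoting complex, read 10.87, 11.33, 11.60 and 11.47. Its difference of 0.43 did not pass (limma adjusted p = 0.0753) and passed without the array labelled Sumo2 (adjusted p = 0.0213, range 0.0213 to 0.271). Ube2c, the conjugating enzyme of the same complex, read 10.82, 11.15, 11.13 and 11.40, so the 38 h line lay just below the culture labelled Sumo2 knockdown, and the difference of 0.28 did not pass (limma adjusted p = 0.185).

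At the centromere and kinetochore 6 of 7 genes rose. Cenpf, a large protein of the outer kinetochore, read 8.35, 8.80, 10.06 and 9.97 and rose 2.72-fold (log2 difference 1.44, SE 0.20, limma adjusted p = 0.00243). Of the 4 subunits of the NDC80 complex, Spc25 stood at 9.76 and 9.80 in the lines and rose by 1.35, and Ndc80 read 8.21, 8.56, 9.67 and 9.71 and rose by 1.31. The other subunit genes moved less. Spc24 read 8.10, 8.38, 9.02 and 8.69 and rose by 0.62 (limma adjusted p = 0.0407), and Nuf2, at 8.80, 9.26, 9.83 and 9.48, differed by 0.62 without passing (limma adjusted p = 0.0586). Both Spc24 and Nuf2 were higher in the 38 h line than in the 10 day line, by 0.33 and 0.35.

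Spc24 lost its call without the Firefly array (adjusted p = 0.197), the array labelled Sumo2 (0.0683) or the 38 h array (0.171), after cyclic loess (0.102) and with no floor (0.0619), in a range of 0.0332 to 0.197. Nuf2 passed without the array labelled Sumo2 (0.0484) and without the 10 day array (0.04), in a range of 0.04 to 0.256 over 10 alternatives. Cenpe stood at 10.15 and 10.11 in the lines and rose by 1.03. The centromeric histone gene Cenpa read 9.23, 9.62, 10.35 and 10.45 and rose by 0.97 (SE 0.18, limma adjusted p = 0.00686), with both lines above both cultures.

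All 7 genes of spindle motors and microtubule binding proteins rose. Kif2c, a kinesin that takes microtubules apart at centromeres, read 8.53, 8.91, 10.39 and 10.21 and rose 3.0-fold (log2 difference 1.58, SE 0.19, limma adjusted p = 0.00157). Kif23 and Prc1, which build the central spindle, rose by 1.30 and 1.27: Kif23 read 9.67, 10.21, 11.16 and 11.31, and Prc1 9.68, 9.78, 11.03 and 10.98. Prc1 was nearly equal in the day 6 cultures, whereas Kif23 was higher in the one labelled Sumo2 knockdown. Tpx2 rose by 0.99, and Kif11, at 11.21 and 11.05 in the lines, by 0.90. Nusap1, which bundles spindle microtubules, read 10.09, 10.44, 10.97 and 11.11 and rose by 0.78. Kif20a, a motor of cytokinesis, read 10.24, 10.62, 11.24 and 11.05 and rose by 0.72. Without the Firefly array the adjusted p was 0.0629 for Kif11 (range 0.00838 to 0.0629) and 0.0682 for Kif20a (range 0.0125 to 0.0682).

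The cytokinesis genes differed from each other: Ect2, which activates RhoA at the cleavage plane, read 11.15, 11.45, 12.17 and 12.04 and rose by 0.81 (SE 0.13, limma adjusted p = 0.00401), while Anln, at 10.96, 11.11, 11.22 and 11.43, differed by 0.29 and did not pass (limma adjusted p = 0.107). Top2a, the topoisomerase that untangles chromosomes, read 10.09, 10.61, 11.78 and 11.74 and rose 2.65-fold (log2 difference 1.41, SE 0.18, limma adjusted p = 0.00202). Probe sets that the annotation shares between Top2a and Taf1d were not used, and both read lower in the iPSC than at day 6. The probe set of Taf1d alone also fell (log2 difference -0.56, SE 0.14, limma adjusted p = 0.02). A probe set shared between Oip5 and Nusap1, also not used, read log2 7.12, 7.28, 8.68 and 8.64 in the same order of arrays. Mki67, which coats mitotic chromosomes, stood at 11.10 and 10.97 in the lines, and its difference of 0.37 did not pass (limma adjusted p = 0.0515). It passed after median centring (adjusted p = 0.0496) and with a higher floor (0.0498), in a range of 0.0496 to 0.206 over 10 alternatives.

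The third comparison set the 38 h line against the 10 day line. The mitosis genes were close in both: 0 of 40 members differed by 1.5-fold in favour of 38 h (4.11% of 11754 genes measured in the lines) or of 10 day (6.44%). At 2-fold the counts were 0 as well (1.03% and 2.19%). Their median log2 difference, 38 h minus 10 day, was 0.05, against 0.02 over all genes measured in the lines. For 28 members the 38 h line was higher (52.5%) and for 12 the 10 day line (47.4%). In 33 members the lines lay within 0.2 log2 units, a size at which the share of all measured genes was not counted. The widest gaps were those of Nuf2 (0.35, 1.27-fold) and Spc24 (0.33), higher at 38 h, and of Cdc25c (-0.29), Ube2c (-0.27) and Anln (-0.21), higher at 10 day. The SD of the difference was 0.14 over the members and 0.41 over all measured genes. These sets are unlike: all members are autosomal and above the floor on every array. The measured genes include genes near the floor and 394 X-linked genes with a median difference of -0.57. All 7 kinase and passenger genes read higher at 38 h, by 0.02 (Incenp) to 0.21 (Aurkb), and with 1 array per line these gaps have no test.

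Other genes of the same machinery were taken from lists of pathway genes, whose counts stand beside the shares of all measured genes: 53.7% higher and 4.09% higher by 1.5-fold at day 6, and 29.0% that rose and 17.8% that fell in iPSC. Of 25 further kinetochore and centromere genes measured at day 6, 23 read higher in the culture labelled Sumo2 knockdown (median log2 difference 0.36) and 4 by at least 1.5-fold, with Cenpn (0.71), Knl1 (0.67) and Sgo1 (0.66) first. Cenpb (-0.27) and Cenpi (-0.09) were lower. Haspin, counted as higher, was below the floor in the Firefly culture, so that the floor itself favours that direction. In iPSC 24 of 29 rose, 1 fell and 4 did not pass, with a median of 1.04. Among those that rose, Cenpk, Cenpl, Cenpp and Ska1 were below the floor in both day 6 cultures, so that the floor itself favours their rise. Zwilch (2.20) and Kntc1 (2.14), which form with Zw10 the complex that brings dynein to kinetochores, rose most, ahead of Ska3 (1.73). Cenpb, which binds a repeat in centromeric DNA, fell by 1.24 on the log2 scale. It was below the floor in both lines (log2 6.45 and 6.53), so that the floor itself favours its fall. Pmf1 differed by -0.02 and did not pass.

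For the anaphase promoting complex and its regulators, 14 of 17 genes were higher at day 6 in the culture labelled Sumo2 knockdown (median 0.17), 1 by 1.5-fold (4.09% of all measured genes), the inhibitor gene Fbxo5 (0.74), while Anapc11 (-0.13), Anapc13 (-0.01) and Anapc16 (-0.01) were lower. In iPSC 7 of 17 rose, not far from the 29.0% of all measured genes, 0 fell and 10 did not pass (median 0.47). Fbxo5 (1.5), Anapc15 (1.45) and the activator gene Fzr1 (0.97) rose most. Anapc2 (-0.02) did not pass.

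All 17 cohesin and condensin genes were higher at day 6 in the culture labelled Sumo2 knockdown (median 0.34), 3 by 1.5-fold: Cdca5 (0.65), Smc3 (0.64) and Ncaph (0.59). In iPSC 13 of 17 rose, 0 fell and 4 did not pass (median 0.89), with Cdca5, which protects cohesion, first at 1.51. Centrosome and spindle pole genes were higher for 16 of 18 measured at day 6 (median 0.26), 1 of them, Haus6 (0.66), by 1.5-fold, and Haus1 (-0.04) and Tubg1 (-0.01) were lower. In iPSC 16 of 20 rose, 0 fell and 4 did not pass (median 0.91), led by Haus4 (1.67) and the centriole gene Stil (1.57), while Nedd1 (-0.17) did not pass. Cep152 and Cenpj, counted as risen, were below the floor in both day 6 cultures, so that the floor itself favours their rise.

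Of 15 further mitotic kinesin and spindle genes, 13 were higher at day 6 (median 0.42), 4 by 1.5-fold. Kif20b (0.85) and Kif15 (0.76) led, and Numa1 (-0.08) and Kif2a (-0.01) were lower. Kifc1, counted as higher, was below the floor in the Firefly culture, so that the floor itself favours that direction. In iPSC 11 rose, 1 fell and 3 did not pass (median 1.18), with Kif20b (2.40) and Kif18a (1.84) first. Ckap2, a spindle protein, fell by 0.81, and Kif2a (-0.02) did not pass. Further cytokinesis genes had no common direction at day 6, with 5 of 9 higher (53.7% of all measured genes) and a median of 0.03 (-0.04 after cyclic loess). In iPSC 4 of 9 rose (29.0% of all measured genes) and 1 fell (17.8%), counts near those shares, and 4 did not pass. Cep55, an abscission gene, rose by 1.85 and Septin9 fell by 0.89.

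Among 15 further kinases and regulators of mitosis 12 were higher at day 6 (median 0.26). Of these, 2 were higher by 2-fold (0.945% of all measured genes): Mybl2 (1.18) and Cdc25a (1.03). Nek7 (-0.22), Nek6 (-0.09) and Pbk (-0.07) were lower. Mybl2 encodes B-Myb, which joins the MuvB complex at late cell cycle promoters. It read 9.42, 10.60, 12.48 and 12.52 and rose 5.61-fold (log2 difference 2.49, SE 0.345, limma adjusted p = 0.00243), while the Foxm1 values were lower in the lines than at day 6. In this list 9 of 15 rose in iPSC, Nek6 (-0.79) and Nek7 (-0.58) fell, and 4 did not pass (median 0.84). Cdc25a read 8.40, 9.43, 10.51 and 10.62 and rose by 1.65 (SE 0.32, limma adjusted p = 0.00818), so of the Cdc25 genes A and C rose and B fell.

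Of 7 relatives of the members with other known roles, 3 were higher at day 6 (53.7% of all measured genes), with a median of -0.01 that no test compared with the members. Plk3 (0.42) and Plk2 (0.41) were higher and Aurkc (-0.29) and Ccna1 (-0.22) lower. Aurkc and Ccna1 were below the floor in the culture labelled Sumo2 knockdown, so that the floor itself favours their lower reading there. In iPSC 5 of 8 rose and 1 fell (median 0.99). Top2b, a topoisomerase that non-dividing cells also make, read 9.55, 9.55, 8.62 and 8.76 and fell by 0.87 (SE 0.16, limma adjusted p = 0.00648), while Top2a rose. Plk5 (2.0) and Plk3 (1.95) rose, though Plk5 was below the floor in both day 6 cultures (log2 6.33 and 6.44), so that the floor itself favours its rise. Plk2 (-0.21) did not pass, and Ccnb3 and Kif2b lay below the floor on all 4 arrays.

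DNA replication genes act in S phase. At day 6, 32 of 34 had the higher value in the culture labelled Sumo2 knockdown (median 0.51) and 14 by 1.5-fold, with Mcm10 (0.88), Orc1 (0.79) and Mcm3 (0.76) first. Gmnn (-0.46), an inhibitor of licensing, and Rrm1 (-0.19) were lower. Gmnn was below the floor in the culture labelled Sumo2 knockdown, so that the floor itself favours its lower reading there. In iPSC 32 of 35 rose, Rrm1 fell by 0.65 and 2 did not pass (median 1.26). Gins1, counted as risen, was below the floor in both day 6 cultures, so that the floor itself favours its rise. A list for the G1 phase held 13 genes: cyclins, CDK inhibitors, and Cdk4, Cdk6 and Rb1. Of these, 10 were lower at day 6 in the culture labelled Sumo2 knockdown (46.3% of all measured genes), with a median of -0.14. In iPSC 8 fell (17.8%) and 1 rose (29.0%), with a median of -1.19. Ccnd2 read 12.83, 12.77, 10.43 and 10.04 and fell by 2.57, the inhibitor gene Cdkn2c fell by 1.47, and Ccnd3 rose by 0.84. No test compared these lists with the mitosis genes.

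**Figure D5:**
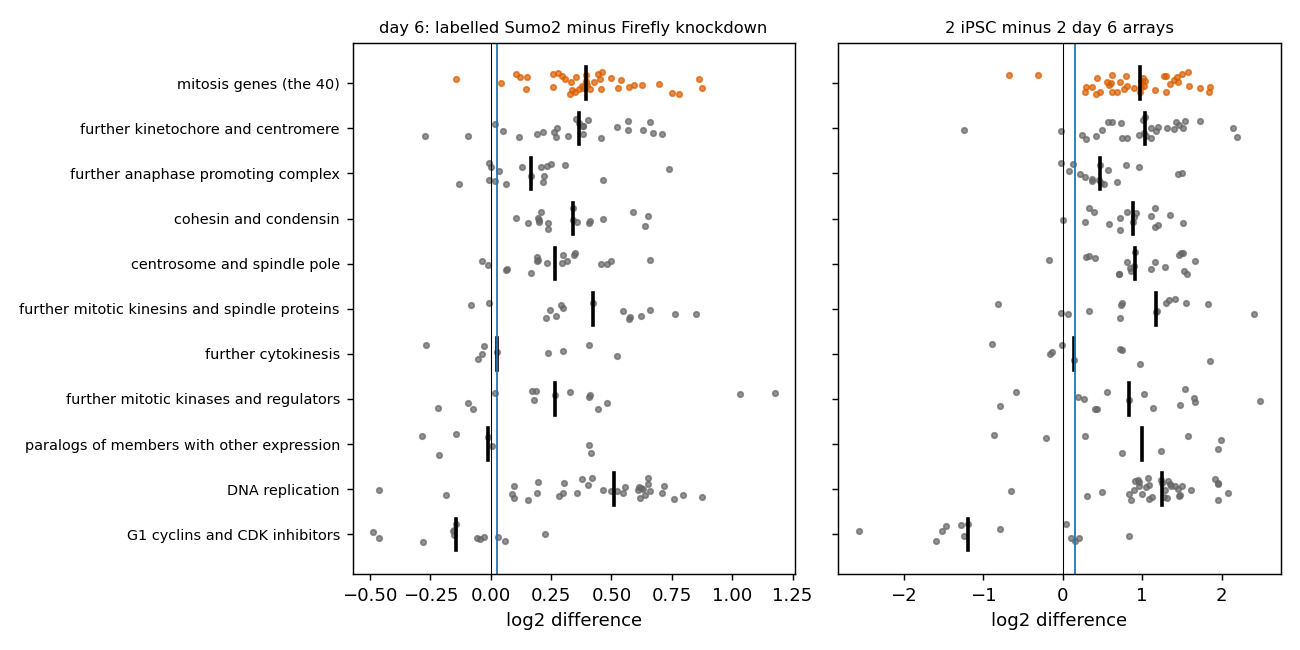
Log2 differences (horizontal axes) of the 40 mitosis genes and of related lists (vertical axis) between the day 6 cultures (left) and between iPSC and day 6 (right); each point is a measured gene, black bars are list medians and the blue line is the median of all measured genes. Medians of the mitosis genes are 0.39 and 0.98, of DNA replication genes 0.51 and 1.26, and of G1 cyclins and CDK inhibitors -0.14 and -1.19. The list labelled G1 cyclins and CDK inhibitors also holds Cdk4, Cdk6 and Rb1.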

How the data were processed

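The values the authors deposited are log2 expression from RMA, run in Affymetrix Expression Console according to the submitters' processing notes, whose versions are not stated here. RMA corrects background, sets the arrays to 1 distribution by quantiles and summarises the probes of a set. The base of the logarithm, unstated in the file, was taken as 2 because RMA writes it so and values ran from 2.98 to 13.7. Array medians were 6.10, 6.10, 6.14 and 6.13. RMA compresses folds of dim and bright probe sets, and quantile normalization hides a change of total RNA. Arrays give no counting depth: precision is limited by how few there are. Of 41345 probe sets, 23521 had 1 symbol, 1814 several and 16010 none listed; the highest-mean probe set stood for a gene. Genes at or above the array's median of single-symbol probe sets on at least 1 array compared were measured. limma 3.58.1 in R 4.3.3 (intensity trend, Benjamini-Hochberg adjustment over all measured genes) tested iPSC against day 6 and was tested on simulated data. Single-array comparisons used 1.5-fold and 2-fold with no test. Named were all members, and from each list the widest differences and genes against its direction. Members and lists were chosen with earlier results of these data known.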

Additional observations from a re-analysis of the deposited data

How the results depend on the processing

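Alternatives for the day 6 comparison were cyclic loess, median centring, the mean over probe sets, no floor and a floor at the 60th percentile. In all of them 39 members stayed higher in the culture labelled Sumo2 knockdown (47.1% to 54.0% of all measured genes). From 5 to 7 members passed 1.5-fold upwards (2.71% to 4.24%), and 0 passed 2-fold with the deposited values (0.945%). For iPSC against day 6, 28 members rose after cyclic loess (23.3% of all genes), and 18 rose with a 2-fold rule added (14.3%). The count that fell, 1, was 2 after cyclic loess and 0 with 2-fold. Leaving out each array gave 24 to 33 that rose (14.96% to 25.4% of all genes), 0 to 1 that fell (9.28% to 15.9%), and medians of 0.71 to 1.19; a lone array was assumed to vary like the pair. In the 250 bases before the start alone, 12 of 33 genes held TTTGAA (36.4% against 12.2% of measured genes) and 2 held TTCGAA (6.06% against 2.07%). Either stood in 13 (39.4% against 14.0%) and either with CCAAT in 12 (36.4% against 5.47%). With the 50 bases after the start included, 23 held TTTGAA (69.7% against 13.7%). No called value reversed its sign in these settings. No paired analysis was possible because each group has 1 array.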

Other observations

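The iPSC lines differed by chromosome, in genes outside the 40 mitosis genes, of which 0 lie on the X chromosome. Among the related cell cycle lists, 6 measured genes are X-linked, and all 6 read higher in the 10 day line: Cenpi (-1.41, 38 h minus 10 day on the log2 scale), Haus7 (-0.74), Kif4 (-0.65), Smc1a (-0.47), Stag2 (-0.38) and Pola1 (-0.14). Of the 171 autosomal genes of those lists 67 (39.2%) were higher in the 10 day line. Over all genes measured in the lines, 354 of 394 X-linked genes (89.8%) and 5215 of 11344 autosomal genes (46.0%) were higher in the 10 day line, with medians of -0.57 and 0.03. These counts were looked at after Cenpi and Kif4 had been seen, and they compare 1 array with 1. Cenpi, a constitutive kinetochore gene, read 7.93 and 7.84 at day 6, 8.64 in the 38 h line and 10.05 in the 10 day line, so the 10 day array stands apart from the other 3.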
